A study of Mus musculus with 16 samples.

Results

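The CCN family is a small set of secreted proteins of the extracellular matrix, and 5 of its genes were followed here in the mouse heart: Ctgf (CCN2), Cyr61 (CCN1), Nov (CCN3), Wisp1 (CCN4) and Wisp2 (CCN5). They were taken by gene symbol from the 24421 genes of the deposited table, with earlier results of these data known. All 5 passed the filter on low values. The RNA came from 16 heart libraries in 4 groups of 4 animals: wild-type (WT) hearts after sham surgery, hearts with ERBB2 overexpression (OE) after sham surgery, WT hearts after myocardial infarction (MI), and OE hearts after MI. Per the labels, infarction followed permanent occlusion of the left anterior descending artery, RNA was taken 2 weeks after surgery, and the animals were adults of about 3 months in all groups. The labels used here do not give the promoter, the cell type or the species of the overexpressed ERBB2, the sex of the animals, or any treatment beyond surgery. Values called normalized reads are the deposited ones, which are read counts divided by 1 size factor per library. Recovered totals were 11939093 to 14886191 reads per library in WT sham and 12747697 to 14297128 in infarcted WT hearts. They were 15382099 to 17095751 in OE sham and 14998464 to 17468914 in infarcted OE hearts. Every OE library thus held more recovered reads than every WT library, so this total and genotype run together here. These totals are of reads counted over genes, and the series' design text states that libraries were subsampled to equal size.

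CCN proteins are built from shared modules that resemble an IGF-binding domain, a von Willebrand factor type C domain, a thrombospondin type 1 repeat and a C-terminal cystine knot, and Wisp2 lacks the cystine knot. They act from the matrix, by binding integrins, heparan sulfate proteoglycans such as syndecan 4, LRP receptors and other matrix proteins, and by holding or presenting growth factors. Ctgf and Cyr61 are widely used as readouts of YAP and TAZ, the transcription coactivators that bind DNA through TEAD factors, and Ctgf is also a target of TGF-beta. In the heart Ctgf is known for its rise with fibrosis and load, and in mice Wisp2 has been described as opposing the fibrotic action of Ctgf. Wisp1 and Wisp2 take their names from induction by WNT1 signalling in mouse mammary cells.

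The genotype check stood as labelled. Erbb2, the receptor tyrosine kinase that was overexpressed, lay between 245 and 260 normalized reads in WT sham hearts and between 204 and 307 in infarcted WT hearts. In OE sham hearts it was at 1946, 792, 2530 and 1783, and in infarcted OE hearts at 793, 1105, 1808 and 2504. OE hearts therefore differed among themselves by 3.19-fold in sham and 3.16-fold in infarcted animals, and none overlapped a WT heart.

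Some libraries, most of them infarcted, held reads of other tissues. Sftpc, which encodes lung surfactant protein C, had 1092 to 4595 reads in infarcted WT replicates 2, 3 and 4 and infarcted OE replicates 2 and 3, and at most 6 in every other library. Rag1, a recombinase of developing lymphocytes, had 184 to 456 reads in infarcted OE replicates 1, 3 and 4 and at most 5 elsewhere. Myh1, a myosin of skeletal muscle, had 799 reads in WT sham replicate 1 and 606 in infarcted OE replicate 1. It had 479 and 285 in infarcted WT replicates 1 and 2, and at most 44 elsewhere. The part of these skeletal muscle reads in the CCN values was not tested. Cardiomyocyte markers such as Myh6 and Tnnt2 were high in all 16 libraries. Their summed level, over 8 genes, was 910279.9 to 1073349.6 normalized reads in WT sham hearts and 497831 to 583914 in OE sham hearts.

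Activated fibroblast markers, taken as a sum, moved the other way. The sum of 10 such genes, among them Postn and Cthrc1, ran from 5286 to 9094 across WT sham hearts and from 26978 to 42276 across OE sham hearts, and after infarction from 13085 to 18794 in WT and from 35025 to 44149 in OE hearts, with no marker at 0 in any group. In the limma fit described below, 9 of the 10 were higher in OE than in WT sham hearts at an adjusted p below 0.05, beside 24.9% of all tested genes. Acta2 was lower, at a log2 fold change of -1.03 (limma, adjusted p = 0.00579). In infarcted OE against WT hearts Acta2 was lower by -1.21 (limma, adjusted p = 0.00338). In bulk heart RNA, more cells of a type and more RNA per cell cannot be told apart, and the part of cell composition in the CCN values below was not tested.

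Ctgf encodes connective tissue growth factor, and it was the most abundant of the 5 per exon length in all 16 libraries. On mouse build GRCm38 (mm10) GENCODE places it on chromosome 10, from 24595442 to 24598683 on the plus strand. A noncoding antisense gene, Gm15270, overlaps its start on the minus strand (chromosome 10, 24549441 to 24597108), and since the strandedness of counting is not stated, reads from these genes cannot be told apart. WT sham hearts held 1924, 1792, 2086 and 1463 normalized reads of Ctgf. OE sham hearts held 17531, 15920, 13881 and 7293, infarcted WT hearts 3800, 7067, 7710 and 1910, and infarcted OE hearts 20446, 6534, 14325 and 13320.

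Every OE sham heart was thus above every WT sham heart for Ctgf, and the lowest infarcted WT heart lay within the WT sham range. Infarcted WT and infarcted OE hearts overlapped through 1 heart, OE replicate 2, which lay below WT replicates 2 and 3. Group means were 1816 ± 264 (SD, n = 4) in WT sham, 13656 ± 4497 in OE sham, 5121 ± 2741 in infarcted WT and 13656 ± 5698 in infarcted OE hearts. The order of the groups was therefore both OE groups together at the top, then infarcted WT, then WT sham.

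Cyr61, an immediate-early gene whose protein binds integrins on fibroblasts and endothelial cells, came second in all 16 libraries per exon length. It lies on chromosome 3, from 145646976 to 145649981 on the minus strand. Cyr61 is among the members known as TEAD targets and was the only member matched in the promoter table used, so the 250 bases before its start are shown, with the letters of a TEAD motif in capitals; RefSeq, on GRCm38.p6, gives them as chr3:145649986-145650235 on the minus strand.

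Cyr61 promoter: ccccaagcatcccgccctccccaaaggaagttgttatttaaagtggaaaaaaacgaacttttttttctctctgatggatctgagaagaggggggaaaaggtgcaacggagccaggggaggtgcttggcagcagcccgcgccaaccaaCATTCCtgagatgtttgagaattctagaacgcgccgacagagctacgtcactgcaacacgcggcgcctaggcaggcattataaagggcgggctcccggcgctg

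The 6 capitals are CATTCC, the reverse complement of GGAATG, and begin 103 bases before the start. Read on both strands, GGAATG occurs in 12.6% of 32851 promoter windows of the same length, so its presence is a description and not a site. The letters TGACG, which form part of a cyclic AMP response element, matched 1 time, 58 bases before the start, and occur in 17.8% of windows. Neither the AP-1 letters TGANTCA, found in 6.75% of windows, nor the CArG box bound by SRF, found in 1.47%, were in this window.

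WT sham hearts held 1011, 1134, 971 and 630 normalized reads of Cyr61, and OE sham hearts 2273, 2663, 1886 and 942. Infarcted WT hearts held 1688, 1496, 2675 and 805, and infarcted OE hearts 2212, 907, 2232 and 2212. Replicate 4 was lowest in WT sham, OE sham and infarcted WT hearts, replicate 2 was lowest in infarcted OE hearts, and the same 4 hearts were lowest for Ctgf. Group means were 936 ± 216, 1941 ± 737, 1666 ± 772 and 1891 ± 656 (SD, n = 4 each) in WT sham, OE sham, infarcted WT and infarcted OE hearts, and the last 3 groups overlapped throughout.

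Each label carries an RA number whose meaning is not stated, and the lowest WT sham, OE sham and infarcted WT hearts for Ctgf and Cyr61 carried the numbers 15, 17 and 16. The other heart numbered above 12, WT sham replicate 3 with number 14, had the highest Ctgf of its group. No infarcted OE heart had a number above 12.

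Nov, whose protein has been described as acting against Ctgf in kidney cells of rodents, lies on chromosome 15 from 54745702 to 54754039 on the plus strand. It held 225, 290, 361 and 412 normalized reads in WT sham hearts and 192, 175, 82.8 and 487 in OE sham hearts. Infarcted WT hearts held 152, 385, 594 and 205, and infarcted OE hearts 332, 309.4, 309.2 and 226. The lowest and the second highest of the 16 values were both OE sham hearts, and no pair of groups was separated. Group means were 322 ± 81.8, 234 ± 175, 334 ± 200 and 294 ± 46.5 (SD, n = 4 each), in the same order of groups.

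Wisp1, a matrix protein made by fibroblasts and linked to WNT signalling, lies on chromosome 15 from 66891320 to 66923201 on the plus strand. It held 73.6, 116.2, 90.8 and 83.4 normalized reads in WT sham hearts and 412, 351, 209 and 116.4 in OE sham hearts. Infarcted WT hearts held 47.0, 85.5, 190.3 and 167, and infarcted OE hearts 217, 255, 240 and 194. OE hearts were above WT hearts without overlap in both states, although the gap was under 1 normalized read in sham hearts, between WT replicate 2 and OE replicate 4. Group means were 91.0 ± 18.2, 272 ± 134, 123 ± 67.5 and 226 ± 26.7 (SD, n = 4 each).

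Wisp2, on chromosome 2 from 163820861 to 163833146 on the plus strand, had the widest ratio of highest to lowest heart of the 5 in both infarcted groups. It held 142, 112, 107 and 219 normalized reads in WT sham hearts and 423, 451, 303 and 499 in OE sham hearts, with no overlap. Infarcted WT hearts held 675, 105, 436 and 539, and infarcted OE hearts 1831, 740, 271 and 194. The highest infarcted OE heart had 9.45 times the lowest, so the infarcted groups overlapped. Group means were 145 ± 51.8, 419 ± 83.6, 439 ± 243 and 759 ± 754 (SD, n = 4 each).

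Wisp3 (CCN6), the remaining relative, was not followed as a member: it stood between 0 and 6.48 normalized reads in the 16 hearts and was not tested.

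**Figure D1:**
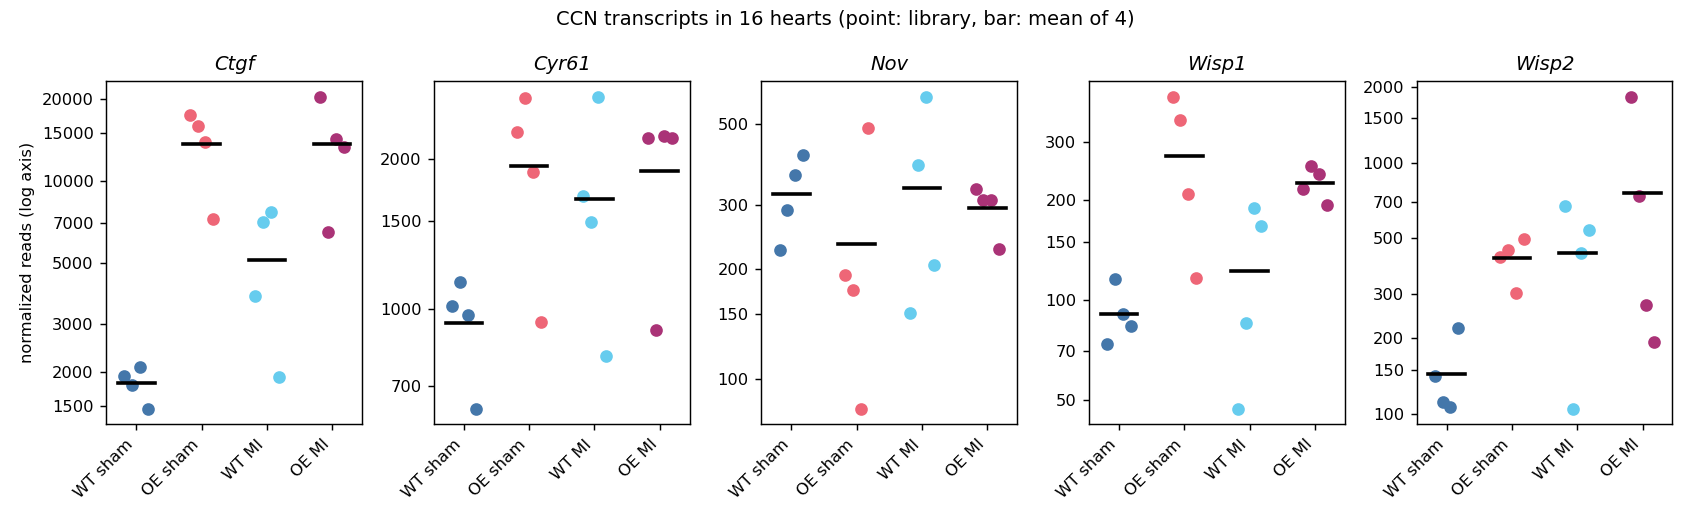
Normalized reads of the 5 CCN genes on log axes, with 1 point per library in replicate order and a bar at the mean of 4 for each group. Ctgf is at 1463 to 2086 in WT sham hearts and at 7293 to 17531 in OE sham hearts, while Nov overlaps between all groups.

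Levels of different genes were compared per exon length. In normalized reads per kb, the CCN genes together stood at 1333 ± 140 (SD, n = 4) in WT sham hearts, 6263 ± 1924 in OE sham hearts, 3067 ± 1310 in infarcted WT hearts and 6448 ± 2579 in infarcted OE hearts. Ctgf made up 49.0% ± 2.93 of this sum in WT sham hearts and 78.0% ± 3.51 in OE sham hearts, and the ranges of 46.3% to 52.3% and 73.5% to 80.9% did not meet. Its share was 57.6% ± 11.8 in infarcted WT and 75.6% ± 4.25 in infarcted OE hearts.

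The share of Cyr61 in the same sum, in which the share of a gene can fall while its level rises, was 34.5% ± 5.30 in WT sham, 15.1% ± 1.96 in OE sham, 26.97% ± 4.37 in infarcted WT and 14.8% ± 3.06 in infarcted OE hearts. The mean share of Nov was 8.61% ± 3.02 in WT sham hearts and 1.72% ± 2.02 in OE sham hearts. Among 24044 genes with a length, ranked by mean level per kb, Ctgf was number 1441 in WT sham, 154 in OE sham, 504 in infarcted WT and 142 in infarcted OE hearts. Below Ctgf and Cyr61 the order changed: Wisp2 was the third in 12 of 16 libraries and Nov in the other 4, while Wisp1 was lowest in 13 and Nov in 3.

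**Figure D2:**
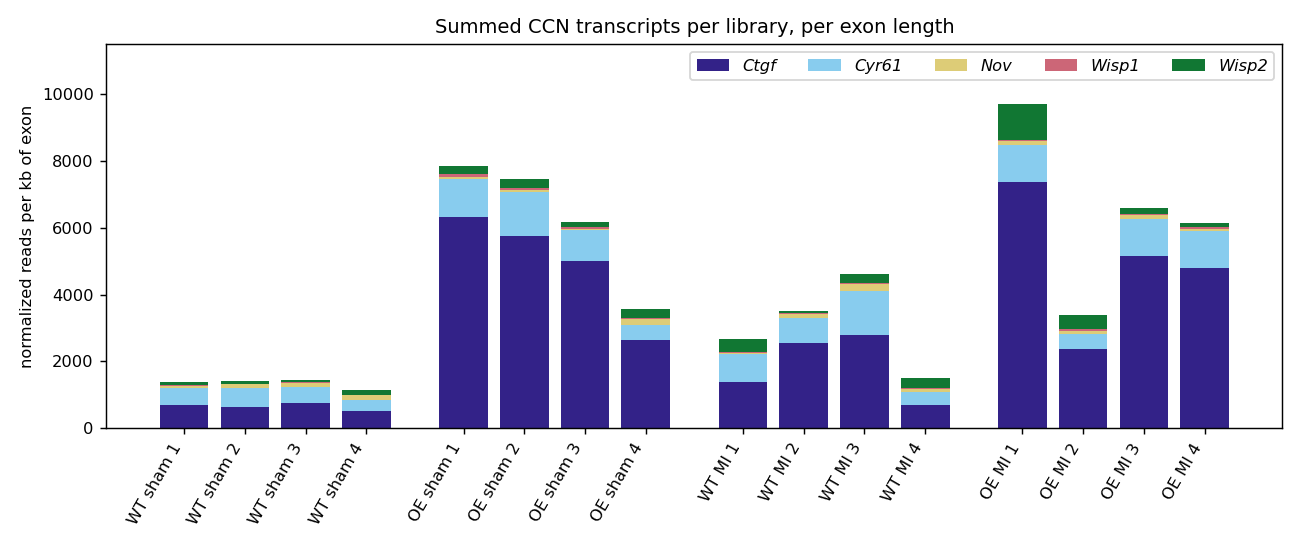
Stacked bars of normalized reads per kb of exon for the 5 CCN genes in each of the 16 libraries. Group means of the whole bar are 1333 in WT sham, 6263 in OE sham, 3067 in infarcted WT and 6448 in infarcted OE hearts, and Ctgf is the largest segment in every bar.

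What ERBB2 overexpression was accompanied by without an infarct is asked by the comparison of OE with WT sham hearts. Ctgf, Cyr61, Wisp1 and Wisp2 rose and Nov did not pass. Values are log2 fold changes from limma on log2(value + 1), with p adjusted by the Benjamini-Hochberg method over all 14298 genes tested, and passing means an adjusted p below 0.05. In this comparison 24.9% of all tested genes passed as higher, 24.5% as lower and 49.3% in either direction, and 48.7% had groups that did not overlap, so a count of 4 of 5 members is to be read against a wide change.

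Ctgf rose by 2.85 (SE 0.41, 95% interval 1.98 to 3.72, adjusted p = 3.68e-05), a 7.20-fold difference of geometric means. Wisp1 rose by 1.43 (SE 0.40, interval 0.58 to 2.29, adjusted p = 0.00791). Cyr61 rose by 0.98 (SE 0.38, interval 0.17 to 1.80, adjusted p = 0.0433), with 3 of 4 OE hearts above every WT heart, and Wisp2 by 1.56 (SE 0.62, interval 0.25 to 2.87, adjusted p = 0.0468), with 4 of 4. Nov stood at -0.70 (interval -1.66 to 0.25, adjusted p = 0.210), with 3 of 4 OE hearts below every WT heart and 1 above. The authors' deposited table gives 2.91 for Ctgf (adjusted p = 2.22e-12), 1.05 for Cyr61 (0.0284), -0.46 for Nov (0.552), 1.58 for Wisp1 (0.000223) and 1.53 for Wisp2 (0.0497).

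The Cyr61 and Wisp2 calls lay near the threshold. Cyr61 no longer passed without any single one of WT sham replicates 1, 3 and 4, OE sham replicates 1, 2 and 3 and infarcted WT replicate 2, and Wisp2 no longer passed without any one of 10 of the 16 libraries, with values of 1.43 to 1.71 in those fits. Without OE sham replicate 4, Nov was lower at -1.15 and passed (adjusted p = 0.0267). Among hearts with RA numbers of 1 to 12, with 2 WT and 3 OE sham hearts, Ctgf stood at 3.08, Cyr61 at 1.07 and Wisp1 at 1.74 and passed, and Wisp2 stood at 1.61 and did not (adjusted p = 0.168).

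**Figure D3:**
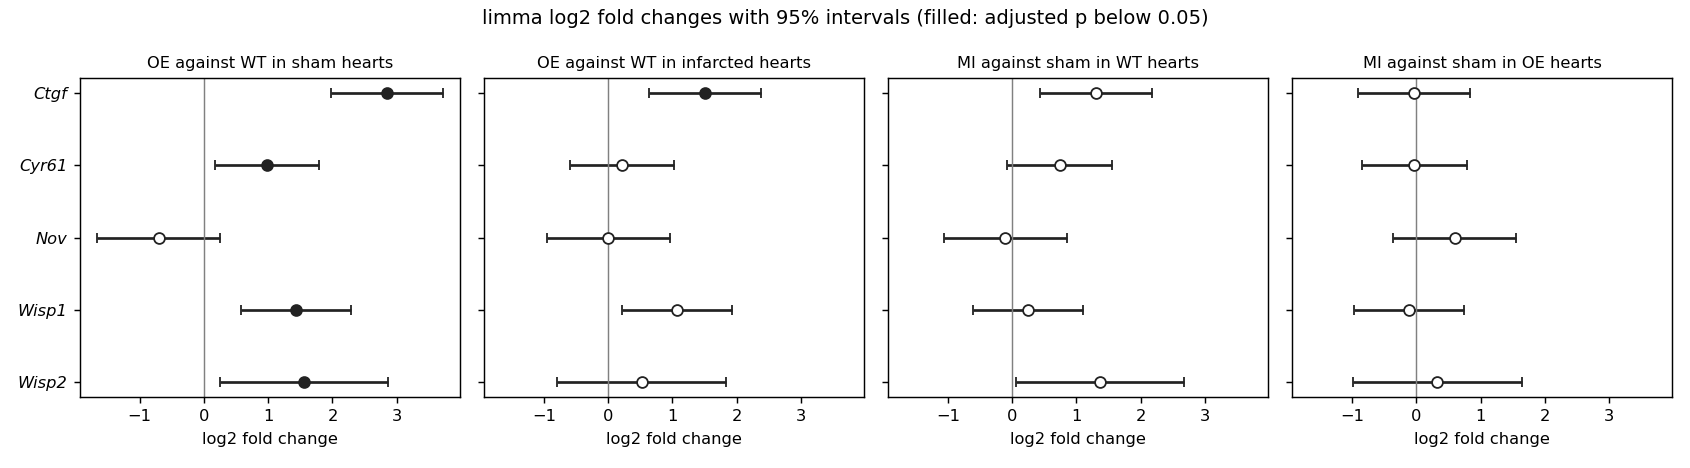
Log2 fold changes of the 5 CCN genes from limma, with bars for the 95% interval, in 4 comparisons of 4 against 4 hearts. Filled points passed at an adjusted p below 0.05: Ctgf, Cyr61, Wisp1 and Wisp2 in OE against WT sham hearts, and Ctgf in OE against WT infarcted hearts.

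Whether members moved by different amounts was examined through the difference of log2(value + 1) between 2 members within each heart. From WT to OE sham hearts, Ctgf moved by 1.86 more than Cyr61, by 1.41 more than Wisp1 and by 3.55 more than Nov, and for each of these pairs the 4 OE hearts were apart from the 4 WT hearts. Each had p = 0.0286 in a two-sided exact permutation test, which is the smallest that 4 against 4 can give, and adjusted p = 0.190 over the 40 tests of 10 pairs in 4 comparisons. Nov against Wisp2 also had groups apart, at -2.26 (exact permutation p = 0.0286, adjusted p = 0.190). Ctgf and Wisp2 differed by 1.29 (exact permutation p = 0.0857, adjusted p = 0.343). None of the 40 passed the adjustment. At the smallest p of 0.0286, a pair can pass over 40 tests only if many of the 40 reach it. Here 6 did, so the adjusted values cannot show that members moved alike.

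Genes that work with the CCN proteins were examined as lists, beside the 24.9% of all tested genes higher and 24.5% lower in sham hearts. The CCN receptors and binding partners counted 13 up, 0 down and 7 not passing of 20 in OE against WT sham hearts, with a median of 0.72 where all tested genes had a median of 0.01. Fn1, which encodes fibronectin, rose from 1985 ± 163 to 10210 ± 1565 normalized reads (SD, n = 4; log2 fold change 2.35, adjusted p = 1.00e-05). Bgn, the small proteoglycan biglycan, rose by 1.75 (adjusted p = 6.21e-07), and Itga5, a subunit of the fibronectin receptor, rose by 1.61 (adjusted p = 3.03e-05).

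Factors known to regulate the family were listed next, beside the same shares of all tested genes, 24.9% higher and 24.5% lower. YAP, TAZ and TEAD factors counted 6 up, 2 down and 1 not passing of 9 (median 0.42). Wwtr1, which encodes TAZ, rose from 1658 ± 83.4 to 2775 ± 160 (0.74, adjusted p = 3.26e-07), Vgll3, a cofactor of TEAD, rose by 1.23 (adjusted p = 0.000269), and Vgll2, a related cofactor at low level, rose by 1.85 (adjusted p = 0.0388). Of 20 other YAP and TAZ targets 9 were up, 3 down and 8 did not pass (median 0.39), led by Fjx1, a relative of the fly Golgi kinase four-jointed, at 2.69 (adjusted p = 4.70e-05), Ankrd1, a stress-responsive cardiac ankyrin repeat protein, at 2.01 (adjusted p = 0.000156) and the growth factor gene Tgfb2 at 1.91 (adjusted p = 9.49e-07).

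TGF-beta pathway genes, which share Tgfb2 with that list, counted 12 up, 2 down and 7 not passing of 21 (median 0.47). Ltbp2, a matrix protein related to the latent TGF-beta binding proteins, rose from 138 ± 22.8 to 1385 ± 421 (3.28, adjusted p = 2.22e-07). SRF and MRTF pathway genes counted 8 up, 3 down and 7 not passing of 18 (median 0.42), with the immediate-early genes Egr1 at 3.45 (adjusted p = 3.34e-05) and Fos at 2.08 (adjusted p = 0.00366) up and the cardiac LIM protein gene Fhl2 down by -1.49 (adjusted p = 3.34e-07). Of 14 WNT targets 11 were tested. Beside the 24.9% of all tested genes higher and 24.5% lower, 3 were up, 1 down and 7 did not pass, with a median of 0.08. Those up were the inhibitor gene Nkd2 at 2.40 (adjusted p = 5.32e-06), Myc at 1.32 (adjusted p = 0.00150) and the cyclin gene Ccnd1 at 1.31 (adjusted p = 1.14e-05).

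In infarcted hearts, OE against WT, Ctgf rose and the other members did not pass. Ctgf was higher by 1.502 (SE 0.41, interval 0.63 to 2.37, adjusted p = 0.0106), with 3 of 4 OE hearts above every WT heart. Wisp1 stood at 1.07 (interval 0.22 to 1.93, adjusted p = 0.0534) with groups that did not overlap, Cyr61 at 0.22 (interval -0.60 to 1.03, adjusted p = 0.712), Wisp2 at 0.52 (interval -0.79 to 1.83, adjusted p = 0.564) and Nov at 0.0025 (interval -0.96 to 0.96, adjusted p = 0.997). Across all genes 15.5% passed as higher and 31.9% in either direction, and 26.6% had groups that did not overlap, which are the figures beside 1 of 5 members called and 1 of 5 apart.

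The infarcted comparison depended on which hearts were kept. With the mean log2 levels of lung and of thymocyte and T cell markers as covariates, Ctgf stood at 0.62 (adjusted p = 0.621). Over all 14298 tested genes, 267 passed as higher and 484 as lower in that fit, beside 2218 and 2336 without these covariates. Without the 3 OE hearts with over 100 Rag1 reads Ctgf stood at 0.55. There OE replicate 2, the lowest of its group, was the only infarcted OE heart left and was assumed to vary like the other groups. Without the 5 hearts with over 100 Sftpc reads, Ctgf stood at 2.12 (adjusted p = 0.00729) and Wisp1 at 2.10 (adjusted p = 0.0261), with 1 infarcted WT heart and 2 infarcted OE hearts left. Wisp1 also passed without infarcted WT replicate 3 (1.35, adjusted p = 0.0218) or 4 (adjusted p = 0.0309), without OE sham replicate 1 (adjusted p = 0.0469) or 4 (adjusted p = 0.0290), and among RA numbers 1 to 12 (1.29, adjusted p = 0.0258). In that last set Ctgf stood at 1.09 (adjusted p = 0.0266). The part of the lung and thymus reads in these values was not tested further.

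The same lists were counted in infarcted OE against WT hearts, where 15.5% of all tested genes passed as higher and 16.3% as lower. CCN receptors and binding partners counted 11 up and 0 down of 20 (median 0.42), TGF-beta pathway genes 9 up and 1 down of 21 (0.19), and other YAP and TAZ target genes 5 up and 2 down of 20 (0.19). YAP, TAZ and TEAD factors counted 2 up of 9 (0.29), SRF and MRTF pathway genes 2 up and 3 down of 18 (0.29), and WNT target genes 4 up of 11 tested (0.36), beside a median of 0.01 over all tested genes. Among pairs, Ctgf moved by 1.29 more than Cyr61 (exact permutation p = 0.0286, adjusted p = 0.190), with groups that did not overlap.

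What an infarct was accompanied by in WT hearts is asked by the comparison of infarcted with sham WT hearts, where no member passed in limma. Ctgf was above every WT sham heart in 3 of 4 infarcted WT hearts, as was Cyr61. Ctgf stood at 1.31 (SE 0.41, interval 0.44 to 2.18, adjusted p = 0.0624), Wisp2 at 1.37 (interval 0.05 to 2.68, adjusted p = 0.175) and Cyr61 at 0.74 (interval -0.07 to 1.55, adjusted p = 0.232). Wisp1 stood at 0.25 (adjusted p = 0.733) and Nov at -0.11 (adjusted p = 0.904). Against this 0 of 5, 7.05% of all tested genes passed in limma in either direction, 4.96% as higher and 2.09% as lower. An unadjusted p below 0.05 was reached by 2 members, and its share over all tested genes was not counted. On recovered reads, edgeR passed 830 of 14298 tested genes as higher and 165 as lower, and DESeq2 passed 1062 and 670. Beside these counts, edgeR and DESeq2 each called 1 member. That member was Ctgf, at 1.52 in edgeR (adjusted p = 0.0344) and 1.496 in DESeq2 (adjusted p = 0.00380), and the authors' deposited table gives 1.496 (adjusted p = 0.00527). In the pair tests Ctgf moved by 1.42 more than Nov (exact permutation p = 0.0286, adjusted p = 0.190), with groups that did not overlap.

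Ctgf also passed in limma when infarcted WT replicate 4, its lowest value, was left out (1.72, adjusted p = 0.0203) and when infarcted OE replicate 2 was (adjusted p = 0.0425). Lung reads were in infarcted WT replicates 2, 3 and 4, with 4595, 1092 and 3815 reads of Sftpc, which include both the highest and the lowest Ctgf of the group. Without the hearts with over 100 Sftpc reads the infarcted WT group held 1 heart, and Ctgf stood at 1.08 (adjusted p = 0.497) and Wisp1 at -0.92 (adjusted p = 0.684).

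Some partners of the family did pass in infarcted WT hearts. The counts are to be read beside 4.96% of all tested genes higher and 2.09% lower, with a median of -0.03. CCN receptors and binding partners counted 8 up and 0 down of 20 (median 0.56), among them Fn1, from 1985 ± 163 to 9248 ± 5364 normalized reads (SD, n = 4; 2.06, adjusted p = 0.00119), and Itgam, an integrin subunit of myeloid cells, at 1.29 (adjusted p = 0.0438). TGF-beta pathway genes counted 5 up of 21, with Ltbp2 at 2.06 (adjusted p = 0.000758) and Tgfb3 at 0.85 (adjusted p = 0.00105). Other YAP and TAZ target genes counted 4 up of 20, with Myof, a membrane repair protein, at 1.10 (adjusted p = 0.00184) and the matrix protein gene Ccdc80 at 0.72 (adjusted p = 0.00600). Vgll3 was the only gene up of 9 YAP, TAZ and TEAD factors (1.29, adjusted p = 0.00433), Myc the only gene up of 11 WNT target genes (1.03, adjusted p = 0.0461), and 0 of 18 SRF and MRTF pathway genes passed. Macrophage markers, summed over 10 genes, were at 6357 to 8214 in WT sham and 10878 to 19181 in infarcted WT hearts.

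In OE hearts no member passed between infarcted and sham animals. Ctgf had a mean of 13656 normalized reads in both, and stood at -0.04 (interval -0.91 to 0.83, adjusted p = 0.983), Cyr61 at -0.03 (interval -0.84 to 0.78, adjusted p = 0.986), Wisp1 at -0.11 (adjusted p = 0.944), Wisp2 at 0.33 (adjusted p = 0.889) and Nov at 0.60 (adjusted p = 0.660). None had an unadjusted p below 0.05, and edgeR and DESeq2 called 0 of 5. Over all tested genes edgeR passed 0 as higher and 1 as lower, and DESeq2 passed 54 and 24. In limma 0.00699% of all tested genes passed, and 5.05% of them had groups that did not overlap, against no member apart. No gene of the 6 pathway lists passed in limma.

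The difference between the MI effects in OE and WT hearts was tested as the interaction. Ctgf stood at -1.34 (interval -2.58 to -0.11, unadjusted p = 0.0342, adjusted p = 0.459), so its smaller MI effect in OE hearts did not pass. Cyr61 stood at -0.77 (adjusted p = 0.670), Nov at 0.71 (adjusted p = 0.752), Wisp1 at -0.36 (adjusted p = 0.875) and Wisp2 at -1.04 (adjusted p = 0.736). In edgeR and DESeq2 0 of 5 passed as well. Of all tested genes 0.0839% passed in limma, 0.0769% as lower. EdgeR passed 1 gene as higher and 10 as lower, and DESeq2 passed 27 and 125.

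Within groups, Ctgf and Cyr61 deviated together. After group means were removed on the log2 scale, their Pearson r was 0.88 over the 16 libraries, and in 13 of 16 both lay on the same side of their group means. The other members did not share this: r with Ctgf was 0.10 for Nov, 0.21 for Wisp1 and -0.24 for Wisp2, with the same side in 9, 8 and 6 of 16 libraries. These values describe libraries that share groups, read totals and tissue sampling, and carry no p. The pair was not alone in this. With group means removed, r was also 0.88 between Ctgf and Fndc3b and 0.91 between Cyr61 and Ndel1, genes that are named below.

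**Figure D4:**
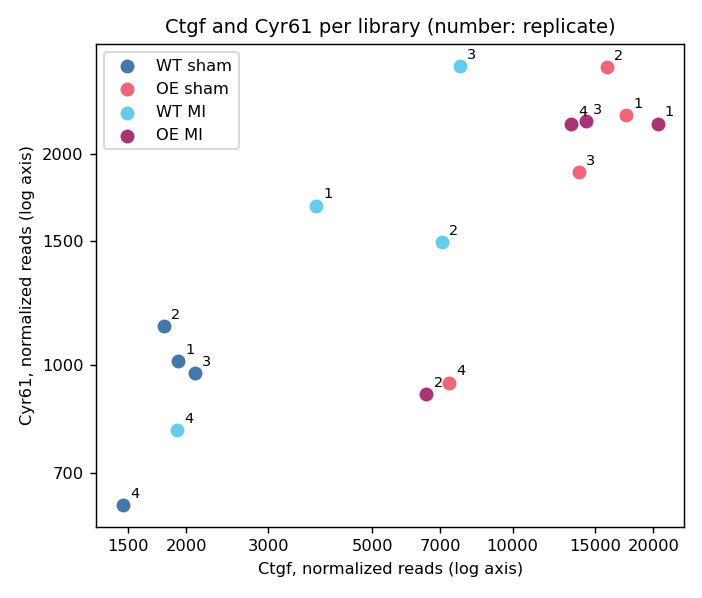
Cyr61 against Ctgf in normalized reads on log axes, with 1 point per library coloured by group and numbered by replicate. OE sham replicate 4 and infarcted OE replicate 2, at 942 and 907 of Cyr61, lie apart from the other 6 OE hearts, and infarcted WT replicate 4 lies among the WT sham hearts.

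The genes whose levels ran most like each member over the 16 libraries are likewise a description without a p. Here r was taken with group differences left in, where Ctgf and Cyr61 had 0.82. With group means removed, the genes named next for Ctgf had 0.88, 0.81, 0.77 and 0.87, in the order given. For Ctgf they were Fndc3b, a fibronectin type III domain protein (r = 0.97), Ptpn9, a tyrosine phosphatase (0.96), Rcn1, a calcium-binding protein of the endoplasmic reticulum (0.96), and Ifngr1, the interferon gamma receptor (0.96). For Cyr61 they were Ndel1 (0.92), Sfpq (0.92), Atf3, a stress-induced transcription factor (0.92), and Gadd45g (0.91). For Wisp1 they were Sec31a, a coat protein of secretory vesicles (0.92), Ext1, an enzyme of heparan sulfate synthesis (0.91), Zfp282 (0.91) and Rrbp1, a ribosome receptor of the endoplasmic reticulum (0.91).

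Nov ran most like Tagln, a smooth muscle actin-binding protein (0.82), followed by Slc38a11 (0.81), Arhgap8 (0.81) and Npnt (0.80). Wisp2 ran most like Clec4a2, a lectin receptor of myeloid cells (0.93), followed by Ssfa2 (0.91), Cd68, a macrophage marker (0.91), and Nckap1l, a gene of blood cells (0.89). Cd68 stood at 621, 509, 369 and 259 normalized reads in infarcted OE replicates 1 to 4, and Wisp2 at 1831, 740, 271 and 194 in the same hearts. Infarcted WT replicate 2, with the least Wisp2 of its group, also had the least Cd68 there, at 262 beside 468, 479.5 and 477. Macrophage markers summed over 10 genes were at 9219 to 11531 in OE sham hearts, above the 6357 to 8214 of WT sham hearts. This sum was at 8705 to 15850.5 in infarcted OE hearts and at 10878 to 19181 in infarcted WT hearts. Infarcted WT replicate 2 was thus above every WT sham heart in the sum, although its Cd68 lay within their range. The part of these markers in the Wisp2 values was not tested.

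Whether members ran with the amount of Erbb2 was asked within the 8 OE hearts, in 5 relations. Wisp2 gave the strongest of the 5 (Pearson r = -0.78, exact permutation p = 0.0170, adjusted p = 0.0852; Spearman rho = -0.74, exact permutation p = 0.0458, adjusted p = 0.229), which did not pass after adjustment over the 5 members. Without the 2 hearts farthest from the median of Erbb2 its r was -0.85, and with sham and infarcted means removed it was -0.77. Ctgf had r = -0.12 (exact permutation p = 0.780, adjusted p = 0.931) and rho = -0.21 (exact permutation p = 0.619, adjusted p = 0.619), and r was 0.70 over the 6 hearts left without the 2 farthest. For Cyr61, Nov and Wisp1, r was -0.04, -0.31 and -0.28 and rho -0.21, -0.40 and -0.33, with exact permutation p of 0.931, 0.465 and 0.501 for r and 0.619, 0.327 and 0.428 for rho. Adjusted values were 0.931, 0.835 and 0.835 for r and 0.619 for each rho, and r without the 2 farthest hearts was 0.71, -0.57 and -0.12.

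**Figure D5:**
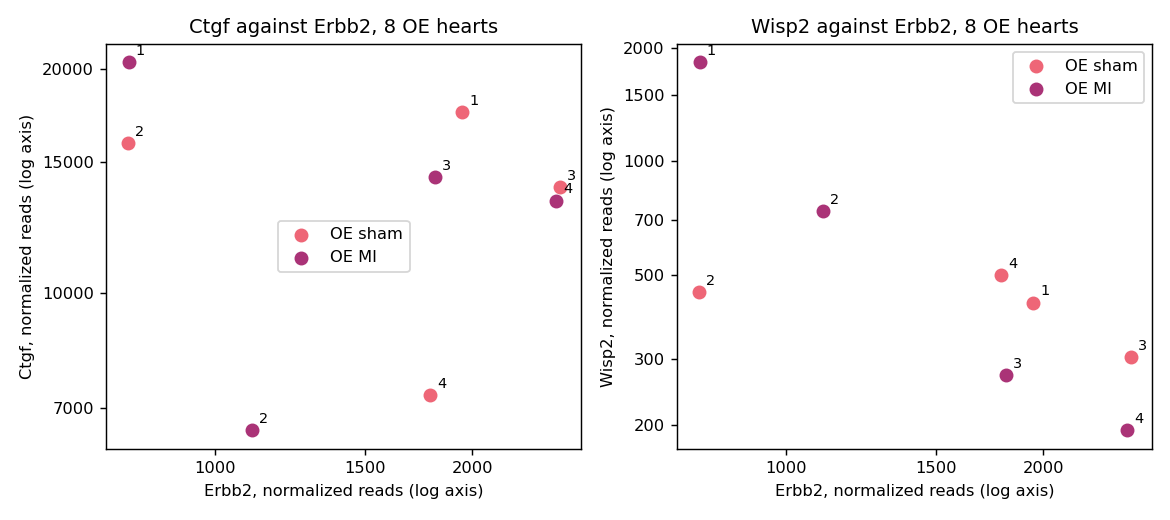
Ctgf and Wisp2 against Erbb2 in the 8 OE hearts, in normalized reads on log axes, with points numbered by replicate. Wisp2 (r = -0.78, adjusted exact permutation p = 0.0852) is at 451 and 1831 in the hearts with the least Erbb2, at 792 and 793 reads, and at 194 and 303 in those with the most, at 2504 and 2530; Ctgf has r = -0.12.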

How the data were processed

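PolyA-selected RNA of 16 mouse hearts was sequenced. According to the series' design text, adapters were removed from single-end reads of 60 nt with cutadapt, a minimum of 40 nt was kept, libraries were subsampled to equal size, reads were aligned to mm10 with TopHat 2.0.10 and counted over RefSeq genes with HTSeq-count 0.6.1p1, and DESeq2 1.6.3 was used for testing. For each of the 16 hearts the authors deposited a normalized signal, and 100% of positive values were whole multiples of 1 step per column within a tolerance of 0.001, from which whole read counts were recovered. The authors' deposited table also gives for 4 comparisons, per the file headers, each gene's log2 fold change with its p-value before and after adjustment.

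Computed anew, genes with at least 10 normalized reads in at least 4 libraries (14298 of 24421) were fitted with limma 3.58.1 (R 4.3.3) on log2(value + 1), with 1 mean per group over all 16 libraries, a trended prior variance and Benjamini-Hochberg adjustment, and passing meant an adjusted p below 0.05. A fold change on this scale understates the change of low genes. Intervals are 95%. Alternatives used edgeR 4.0.16 and DESeq2 1.42.0 on recovered reads, and the fitting was tested on simulated data. Exact permutation tests used scipy 1.17.1. Lengths came from GENCODE M21. The promoter came from a table of RefSeq promoters in which 1 of the 5 members was matched, and those of the others were not used here.

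The labels name 4 animals per group, so replicates are animals. Shared replicate numbers did not pair the samples. The named genes are the 5 members, Erbb2, Wisp3, up to 3 genes per pathway list with the largest passing change in OE against WT sham hearts, up to 2 in infarcted against sham WT hearts, and the 4 genes most like each member by Pearson r. A gene that the rule names in the TGF-beta list is not reported here. Beside these, markers of other cell types are named where they stand beside a result. Members, lists and tests were chosen with earlier results of these data known. OE sham and infarcted WT hearts are both compared with WT sham hearts, so those comparisons share 4 libraries.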

Additional observations from a re-analysis of the deposited data

Results flagged for a closer look

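In infarcted OE hearts, replicate 2 held 907 normalized reads of Cyr61, far below the 2212 to 2232 of the other 3, and its gap to the nearest of them was 0.985 of the group's range, above Dixon's 95% limit for 4 samples. This was the only value past that limit among 20 groups of 4 examined, and chance flags about 1 in 20. The same heart had the lowest Ctgf of its group, at 6534, and held 0 reads of Rag1, beside 332, 456 and 184 in replicates 1, 3 and 4, and 3520 reads of Sftpc, beside 6, 1185 and 0.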

How the results depend on the processing

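The rises of Ctgf and Wisp1 in OE against WT sham hearts passed under every alternative run. Those of Cyr61 and Wisp2 did not: Cyr61 stood at 0.98 without a filter on low values (adjusted p = 0.0563) and without a trend in the prior variance (0.0585), and Wisp2 at 1.56 in those settings (0.0607 and 0.0624), at 1.55 in edgeR (0.0508) and at 1.61 among RA numbers 1 to 12 (0.168). Library totals in place of size factors put the median over all genes at 0.17 in sham and 0.14 in infarcted OE against WT hearts. In infarcted OE against WT hearts Ctgf no longer passed with lung and thymus terms (0.62). Over all tested genes, 267 passed as higher and 484 as lower in that fit, beside 2218 and 2336 in the main fit. Without the libraries over 100 Rag1 reads Ctgf stood at 0.55. Wisp1 passed there with a minimum of 50 normalized reads (1.07, adjusted p = 0.0495), with library totals (1.20, 0.0275) and among RA numbers 1 to 12 (1.29). Wisp1 stood at 2.10 without the libraries over 100 Sftpc reads. In infarcted against sham WT hearts Ctgf passed with library totals (1.37, adjusted p = 0.0478), edgeR (1.52) and DESeq2 (1.496). Leaving out the Sftpc or the Rag1 libraries was chosen after the data were seen, and leaves 1 heart in a group. The cause of these shifts was not tested.

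Under settings other than leaving out a library, values that did not pass changed sign in 23 cases. In OE hearts, infarcted against sham, Ctgf stood at 0.0036 with library totals, 0.0023 in edgeR, 0.0018 in DESeq2 and 0.35 without the Sftpc libraries, Cyr61 at 0.011 and 0.29 in the first and last of these, and Wisp1 at 0.064 without the Rag1 libraries. In infarcted OE against WT hearts, Cyr61 stood at -0.091 among RA numbers 1 to 12, -0.65 with lung and thymus terms and -0.75 without the Rag1 libraries; Nov stood at -0.0019 with a pseudocount of 8, -0.17 in edgeR, -0.18 in DESeq2, -0.16 among RA numbers 1 to 12 and -0.10 with lung and thymus terms; and Wisp2 stood at -0.18 without the Sftpc libraries. In infarcted against sham WT hearts, Nov stood at 0.076 in edgeR, 0.054 in DESeq2 and 0.35 among RA numbers 1 to 12, and Wisp1 at -0.014 among RA numbers 1 to 12, -0.23 with lung and thymus terms and -0.92 without the Sftpc libraries. The interaction of Wisp1 was 0.67 without the Sftpc libraries.

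With each of the 16 libraries left out in turn, OE against WT sham values ranged from 0.80 to 1.30 for Cyr61, 1.43 to 1.78 for Wisp2, -1.15 to -0.30 for Nov, 2.70 to 3.12 for Ctgf and 1.18 to 1.79 for Wisp1. In infarcted hearts they ranged from 1.09 to 1.82 for Ctgf, which always passed, 0.68 to 1.35 for Wisp1, -0.091 to 0.54 for Cyr61, -0.31 to 0.35 for Nov and -0.086 to 0.99 for Wisp2. Infarcted against sham, the ranges in WT hearts were 1.04 to 1.72 for Ctgf, -0.45 to 0.20 for Nov and -0.031 to 0.63 for Wisp1, and in OE hearts -0.31 to 0.28 for Ctgf, -0.34 to 0.29 for Cyr61, -0.47 to 0.14 for Wisp1 and -0.28 to 0.80 for Wisp2. The correlation with Erbb2 ranged from -0.94 to -0.67 for Wisp2, and passed without OE sham replicate 2 (exact permutation, adjusted p = 0.0179), from -0.42 to 0.18 for Ctgf, -0.29 to 0.22 for Cyr61 and -0.54 to 0.060 for Nov.

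Same-numbered replicates deviated together no more than others (24 pairs, correlation -0.34 to 0.27), and 1 of 16 libraries correlated best with its own number. A fit with the replicate block changed no call of a member: Ctgf in sham hearts stood at 2.85 with adjusted p = 4.47e-05, and in infarcted hearts its adjusted p was 0.00743.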
